A study of Mus musculus with 38 samples.

Results

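The 10 genes described here are Nfkbia, Cd69, Gpr183, Nfkbiz, Tnfaip3, Nfkb1, Nfkb2, Relb, Birc3 and Bcl3, and all 10 were found by symbol among the 13260 genes of the deposited RPKM table. They were chosen from measured values of these same libraries, because Nfkbia, Cd69 and Gpr183 differed between bone-lining and central bone marrow myeloma cells, and the other 7 genes belong to the feedback arm of the same pathway. The difference between the niches is therefore given as a description, with no p-value for these genes, and where the call rule that chose them is applied to them again it is only to show what the choice used. The other comparisons are tested, but the genes were picked with earlier results known, and Nfkbia, Cd69 and Gpr183 are not tested between myeloma and niche cells, which uses the same myeloma libraries.

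RNA-Seq was performed on 38 libraries of 100 cells each. C57Bl/KaLwRijHsd mice aged 8 to 10 weeks received vehicle or 5TGM1-GFP cells intravenously, a mouse myeloma line tagged with green fluorescent protein, and were culled on day 23 with no further treatment. Healthy mice gave 5 endothelial, 5 stromal progenitor and 4 osteoprogenitor libraries, all from the bone lining, and myeloma-bearing mice gave the same numbers together with 5 libraries of myeloma cells from the bone lining and 5 from the central marrow. The niche cells were gated without CD45 and Ter119, so that blood cells were to be left out, and the sorts used CD31 for endothelial cells, Sca1 for stromal progenitors and ALCAM for osteoprogenitors. All myeloma libraries derive from a single cell line. Each library carries a letter, and the labels do not state that a letter is a single mouse, so p-values measure the spread between libraries, which may be partly technical.

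NF-kB transcription factors are held in the cytoplasm by inhibitor proteins and enter the nucleus when receptors of the TNF, interleukin-1 or Toll-like families activate the kinases that remove these inhibitors. Many of the genes they then switch on encode proteins that act on the pathway itself. In multiple myeloma this pathway is a well known survival route, and mutations in several of its regulators occur in the disease. Cd69 and Gpr183 are surface proteins that help to position lymphocytes in tissue: Cd69 holds cells in place by removing the sphingosine-1-phosphate receptor S1pr1 from the cell surface, and Gpr183 is a receptor that guides B cells towards oxysterols made by Ch25h, Cyp7b1 and other enzymes.

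The promoters of Nfkbia, Tnfaip3, Bcl3 and Gpr183 are shown as examples with and without the letters that NF-kB dimers prefer. RefSeq promoters on GRCm38.p6, from 250 bases before to 50 bases after the start, were matched for 6 of the 10 genes, giving 9 promoters since some genes have several starts. Nfkbia lies on chromosome 12 with its promoter at chr12:55492598-55492897 on the minus strand, and the first Tnfaip3 promoter lies at chr10:19015361-19015660, also on the minus strand. The Bcl3 promoter is at chr7:19822706-19823005 and the Gpr183 promoter at chr14:121965144-121965443, both on the minus strand. Each is written from 5′ to 3′ along its gene, and capitals mark a match to the kB consensus, searched on both strands, or to the AP-1 motif TGANTCA, which reads the same on both strands.
Nfkbia promoter: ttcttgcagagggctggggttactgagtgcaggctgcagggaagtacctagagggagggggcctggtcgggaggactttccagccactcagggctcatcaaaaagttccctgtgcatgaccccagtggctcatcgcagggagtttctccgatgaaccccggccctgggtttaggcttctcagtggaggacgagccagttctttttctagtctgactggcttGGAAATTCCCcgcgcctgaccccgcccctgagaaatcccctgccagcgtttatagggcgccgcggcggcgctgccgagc
Tnfaip3 promoter: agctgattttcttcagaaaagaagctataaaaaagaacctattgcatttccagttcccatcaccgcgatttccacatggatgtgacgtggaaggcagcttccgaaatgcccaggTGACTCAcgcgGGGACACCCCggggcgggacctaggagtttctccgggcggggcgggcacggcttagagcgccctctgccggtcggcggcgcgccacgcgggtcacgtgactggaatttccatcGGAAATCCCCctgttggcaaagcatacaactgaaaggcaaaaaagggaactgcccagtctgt
Bcl3 promoter: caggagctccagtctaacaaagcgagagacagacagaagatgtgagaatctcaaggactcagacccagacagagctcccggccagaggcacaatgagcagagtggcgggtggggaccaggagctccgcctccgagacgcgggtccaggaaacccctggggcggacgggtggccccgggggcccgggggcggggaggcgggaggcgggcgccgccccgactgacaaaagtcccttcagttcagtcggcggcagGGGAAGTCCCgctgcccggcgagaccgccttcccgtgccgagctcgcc
Gpr183 promoter: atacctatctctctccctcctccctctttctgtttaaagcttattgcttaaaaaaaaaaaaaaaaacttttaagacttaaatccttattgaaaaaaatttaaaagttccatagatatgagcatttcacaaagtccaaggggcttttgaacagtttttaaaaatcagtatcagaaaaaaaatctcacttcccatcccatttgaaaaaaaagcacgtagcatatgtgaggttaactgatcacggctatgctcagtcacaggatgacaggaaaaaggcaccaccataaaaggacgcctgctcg
The kB consensus matched once in the Nfkbia promoter, beginning 29 bases before the start, and in 2 places in the first Tnfaip3 promoter, at 125 and at 12 bases before it. Bcl3 held 1 match, just after its start, and Gpr183 held no match to either motif. The Tnfaip3 promoter also held an AP-1 match, 136 bases before the start, that overlaps neither kB match. Of the 6 genes with a promoter, 4 held a kB match (Nfkb2 is the fourth) and Birc3 held none, and of their 9 promoters 6 held one. An AP-1 match was found in 2 of the 6 genes, Tnfaip3 and Nfkb2. Across all 32817 promoters of this length, 8.46% held the kB consensus, 7.81% the AP-1 motif and 1.79% the cAMP response motif TGACGTCA, which was found in none of the 6 genes. Such a match is a description of letters and says nothing about binding in these cells.

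Reads on genes were recovered from the RPKM values and ranged from 9735031 to 34883291 per library. They ranged from 9735031 to 17834395 in the bone-lining myeloma cells and from 12980720 to 17972882 in the central ones. Marker levels followed the labels for all but the stromal progenitors. The summed level of 8 plasma cell markers was 4029 RPKM or more in each myeloma library and 452 RPKM or less elsewhere, that of 6 endothelial markers 656 RPKM or more in each endothelial library and 26.0 RPKM or less elsewhere, and that of 10 osteoprogenitor markers 8349 RPKM or more in each osteoprogenitor library and 1328 RPKM or less elsewhere. Stromal progenitor markers did not mark that population alone, since their sum was 958 to 3036 RPKM in stromal progenitors and 2253 to 8771 RPKM in endothelial cells. The summed level of 9 neutrophil, monocyte and macrophage markers reached 7406 RPKM in a stromal progenitor library of the healthy mice and 8300 RPKM in a library of the myeloma-bearing mice, against group medians of 125 and 121 RPKM. In libraries of many cells, fewer cells that express a gene cannot be told apart from less RNA per cell.

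In the myeloma cells, the cytoplasmic inhibitor Nfkbia, the nuclear inhibitor Nfkbiz, Cd69 and Gpr183 were higher in every bone-lining library than in every central marrow library. The fold changes below are on the scale of log2(RPKM + 1), with the standard error (SE) from limma over the 10 libraries, and a gene is called when its Benjamini-Hochberg adjusted p is below 0.1 and its absolute log2 fold change above 1. Of the 10 genes, 3 met this rule (Nfkbia, Cd69 and Gpr183), against 0.203% of the 8857 genes tested, and 4 had groups that did not overlap, against 1.47% of those genes. Since this contrast chose the genes, nothing is read from these counts. Among the 10, the smallest fold change called was that of Nfkbia (1.97) and the largest not called that of Nfkbiz (1.84).

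Nfkbia encodes the inhibitor that NF-kB induces to take itself back out of the nucleus. In the bone-lining libraries D, E, G, I and J it stood at 224, 201, 340.4, 321 and 286 RPKM, and in the central libraries of the same letters at 71.2, 55.9, 67.0, 61.1 and 87.1 RPKM. The lowest bone-lining library was thus 2.31-fold above the highest central one. Means were 274 ± 60.5 and 68.4 ± 11.9 RPKM (SD, n = 5 each), a log2 fold change of 1.97 (SE 0.22). Each value rested on at least 1920 reads. By mean level Nfkbia ranked 337 among all genes in the bone lining and 1098 in the central marrow.

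Nfkbiz encodes an inhibitor-like protein that stays in the nucleus and is needed for a subset of NF-kB targets. It stood at 28.3, 18.5, 12.6, 55.0 and 17.5 RPKM in the bone lining and at 8.91, 4.29, 3.99, 4.95 and 7.63 RPKM in the central marrow. The groups were apart by a narrow margin, with the lowest bone-lining library 1.41-fold above the highest central one, and the log2 fold change was 1.84 (SE 0.41). Tnfaip3, a ubiquitin-editing enzyme that shuts off signals from the receptors, was detected in all bone-lining libraries at 4.98, 1.48, 3.27, 6.09 and 8.16 RPKM. In the central marrow it was listed at 0 in libraries D, E and G and at 2.16 and 2.63 RPKM in I and J, so that the groups overlapped. Within each letter Tnfaip3 was higher in the bone lining, and its log2 fold change was 1.70 (SE 0.52).

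Of the subunits, Relb, which pairs with the Nfkb2 product in the slower non-canonical arm, stood at 14.8, 11.8, 3.51, 12.7 and 8.74 RPKM in the bone lining and 6.35, 5.20, 0.5265, 0.0914 and 6.08 RPKM in the central marrow. The log2 fold change was 1.57 (SE 0.59), and the groups overlapped through library G of the bone lining. Nfkb2 had a log2 fold change of 0.66 (SE 0.48) with means of 3.75 ± 2.45 and 1.82 ± 1.02 RPKM (SD, n = 5 each). Nfkb1, the precursor of the main canonical subunit, stood at 12.1 ± 6.72 and 11.3 ± 3.22 RPKM (SD, n = 5 each), a log2 fold change of -0.04 (SE 0.41). Its difference within letters ran from -1.35 to 1.19. No direction is read from this range, since the labels do not state that a letter is a single mouse. Birc3, an inhibitor of apoptosis that also acts as a ubiquitin ligase at TNF receptors, had a log2 fold change of 0.20 (SE 0.48). Bcl3, a nuclear inhibitor-like protein that acts as a coactivator, had one of 0.18 (SE 0.43) and stayed at 2.68 RPKM or less in all 10 myeloma libraries.

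**Figure D1:**
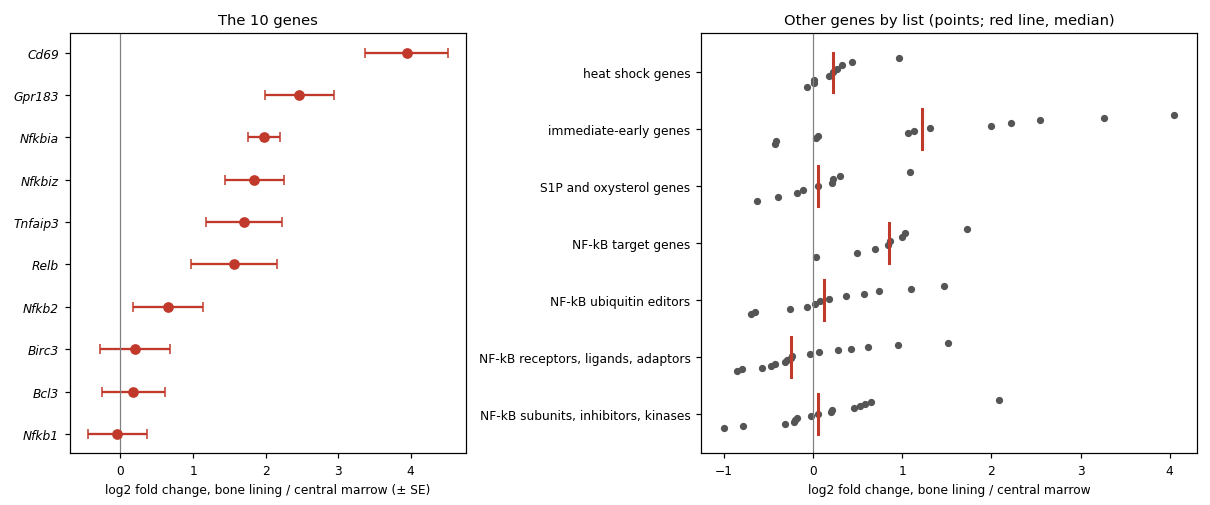
Log2 fold change of the 10 genes between bone-lining and central marrow myeloma cells with its SE (left; 5 libraries per niche), and of the tested genes of 7 further lists (right; 1 point per gene, red line at the median). Cd69 lies at 3.95, Nfkbia, Nfkbiz, Tnfaip3 and Relb lie between 1.57 and 1.97, and Nfkb1, Birc3 and Bcl3 lie within 0.20 of 0. The immediate-early list has a median of 1.22.

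Cd69 and Gpr183, the genes of tissue positioning, had the largest differences. Cd69 stood at 79.2, 77.4, 88.4, 33.1 and 173 RPKM in the bone-lining libraries D, E, G, I and J and at 4.82, 12.1, 6.11, 6.08 and 0 RPKM in the central ones. Library J held both the highest bone-lining value and the only central value of 0. Means were 90.1 ± 50.8 and 5.82 ± 4.31 RPKM (SD, n = 5 each), a log2 fold change of 3.95 (SE 0.57), and the lowest bone-lining library was 2.74-fold above the highest central one. In counts this was 1366 to 3734 reads per bone-lining library and 0 to 529 reads per central library.

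Gpr183 stood at 2.37, 17.3, 5.12, 2.68 and 3.56 RPKM in the bone lining, each library holding 140 to 717 reads of it. In the central marrow it had 15 reads in library D (0.238 RPKM) and 0 reads in E, G, I and J. Library E carried a large part of the bone-lining mean of 6.20 ± 6.28 RPKM (SD, n = 5), and the lowest bone-lining library was 9.95-fold above the only central library with reads. The log2 fold change of 2.46 (SE 0.47) depends on the constant added before the logarithm, since 4 of the 5 central libraries were at 0, and the call was lost when the libraries of any single letter were left out (2.03 to 2.72). Gpr183 (chromosome 14, 121952551 to 121965195, minus strand) lies within Ubac2 (121878620 to 122021034) on the other strand, and reads were counted at default settings, which ignore strand. Ubac2 itself was at 5.03 to 24.7 RPKM in the bone lining and 4.79 to 11.8 RPKM in the central marrow, and the part of its reads in the Gpr183 counts was not tested. Of the other genes, Nfkbia (chromosome 12, 55489410 to 55492647), Cd69 (chromosome 6, 129267325 to 129275436), Nfkbiz, Tnfaip3, Relb and Birc3 overlap no other annotated gene, while Nfkb2 overlaps Psd and an antisense transcript, Bcl3 a pair of antisense transcripts and Nfkb1 a short transcript on its own strand.

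No further gene of the NF-kB lists was called between the niches, where 0.203% of all genes were, so that nothing is read from these counts. Of 17 further subunits, inhibitors and kinases 15 were tested and 0 were called, with a median log2 fold change of 0.06. Among them Rel, the subunit most used by activated lymphocytes, was higher in all bone-lining libraries (3.97 to 20.2 RPKM) than in all central ones (0.175 to 2.82 RPKM), a log2 fold change of 2.09 (SE 0.51) that was not called, and Rela had one of -0.02 (SE 0.54). None of 16 tested receptors, ligands and adaptors was called (median -0.24), nor any of 12 ubiquitin editors (median 0.13). Of the 25 NF-kB target genes outside the 10, 8 were tested, 0 were called and 8 had a positive fold change, with a median of 0.85. The ligand Tnf was listed at 0 in all central libraries and reached 6.10 RPKM in the bone lining. Il1b was also at 0 in all central libraries and had a median of 4.59 RPKM in the bone lining, with its lowest bone-lining library at 0. Of 9 tested genes of sphingosine-1-phosphate and oxysterol positioning 0 were called (median 0.05), and S1pr1, the partner that Cd69 removes, was at 0.445 RPKM or less in every myeloma library.

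Other genes moved with this difference. Of 12 tested immediate-early genes, which cells switch on within minutes of a stimulus, 3 were called, where 0.203% of all genes were. These were Fos, Fosb and Klf6, all higher in the bone lining (log2 fold changes of 4.05, 3.26 and 2.55), and the list's median was 1.22. With no filter on low values Nfkbia was the only gene called, so these 3 lost their calls. The list was chosen with earlier results known, and a gene can pass the filter through the bone-lining libraries alone. The summed level of the list was 220.2 to 529 RPKM in the bone lining and 154 to 228 RPKM in the central marrow, and the groups overlapped by library J of each niche. The methods describe collagenase digestion for cells of the bone surface, after the marrow was washed out, and in another experiment of the study central marrow cells were flushed from the cavity without digestion being named, so niche and isolation cannot be told apart. Heat shock genes were 0 of 9 called (median 0.22), with sums of 1129 to 1469 and 1066 to 1259 RPKM. Stromal progenitor markers summed to 0.437 to 38.01 RPKM in the bone lining and 0.0878 to 4.67 RPKM in the central marrow, osteoprogenitor markers to 25.2 to 76.4 and 37.9 to 97.3 RPKM, endothelial markers to 6.05 to 17.9 and 3.86 to 23.6 RPKM, and the myeloid list to 168 to 898 and 413 to 674 RPKM, of which Cd68 gave most. All 3 tested myeloid markers had negative fold changes, -2.22 for S100a9, -1.89 for S100a8 and -0.01 for Cd68, and none was called. The part of these genes in the niche difference was not tested.

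**Figure D2:**
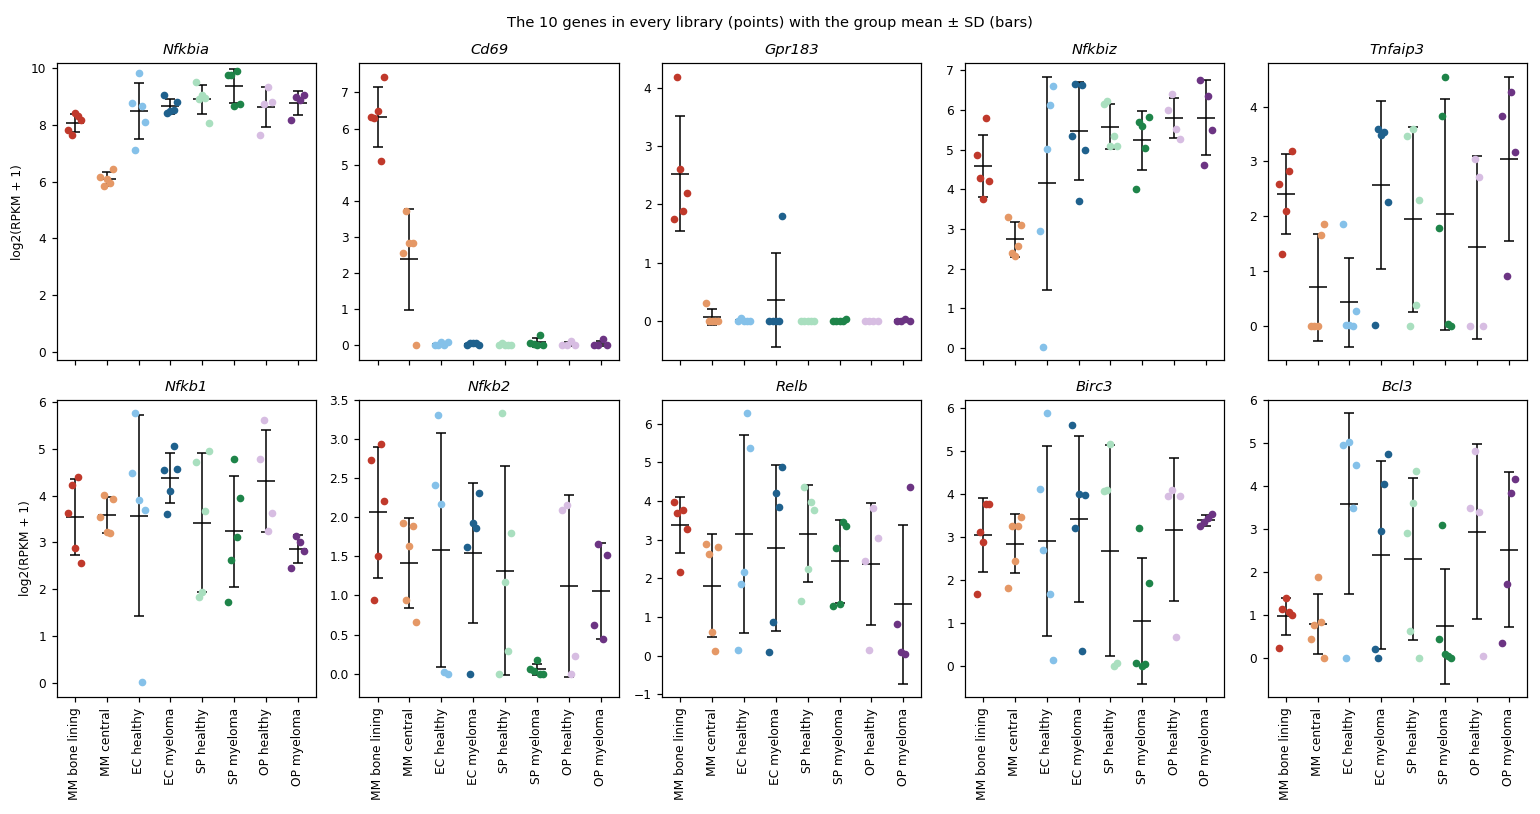
Log2(RPKM + 1) of each gene in all 38 libraries (points), with the group mean and SD (bars), for myeloma cells (MM), endothelial cells (EC), stromal progenitors (SP) and osteoprogenitors (OP). Nfkbia is high in all niche cells and lowest in central marrow myeloma cells, Cd69 and Gpr183 are near 0 outside myeloma cells apart from Gpr183 in 1 endothelial library, and several of the other genes run from 0 or nearly 0 to high values within a niche cell group.

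In the niche cells Cd69 and Gpr183 were almost absent. Cd69 had at most 3 reads in each library of endothelial cells, stromal progenitors and osteoprogenitors except library I of the stromal progenitors of myeloma-bearing mice, with 9 reads (0.223 RPKM). With each niche library taken at 3 reads or its own count, whichever was larger, the bone-lining mean of Cd69 was at least 655-fold higher than the mean of each niche group, and these bounds cover counting error only since amplified copies were not collapsed. Gpr183 had at most 2 reads in 27 of the 28 niche libraries. The exception was library J of the endothelial cells of myeloma-bearing mice, with 251 reads (2.47 RPKM), where the other 4 libraries of that group had 0. Outside that group the bone-lining mean of Gpr183 was at least 81.8-fold higher than that of a niche group, and at least 45.3-fold without bone-lining library E. Over the endothelial cells of myeloma-bearing mice it was at least 11.4-fold higher, or at least 6.30-fold without E, and their library J (2.47 RPKM) lay above the lowest bone-lining library (2.37 RPKM).

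Nfkbia was, by contrast, among the most abundant transcripts of the niche cells. Its mean was 504 ± 165 RPKM (SD, n = 5) in stromal progenitors of healthy mice and 707 ± 267 RPKM (SD, n = 5) in those of myeloma-bearing mice, where it ranked 128 among all genes. Endothelial cells had 434 ± 290.5 and 410 ± 77.5 RPKM (SD, n = 5 each), and osteoprogenitors 430 ± 184 and 450 ± 110 RPKM (SD, n = 4 each), in healthy and myeloma-bearing mice respectively. In myeloma-bearing mice the order of the means ran from stromal progenitors through osteoprogenitors and endothelial cells, whose libraries overlapped, to bone-lining and then central marrow myeloma cells, while healthy endothelial cells and osteoprogenitors were level. No pair of niche cell types of myeloma-bearing mice passed the thresholds for Nfkbia, the largest gap being endothelial cells against stromal progenitors (log2 difference -0.71, SE 0.37, adjusted p = 0.233 in limma over all 38 libraries).

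Myeloma cells, taken as the mean of both niches, were compared with each niche cell type of the myeloma-bearing mice in limma over all 38 libraries and 12683 genes. Nfkbia was lower in myeloma than in endothelial cells by a log2 difference of -1.57 (SE 0.32), than in stromal progenitors by -2.28 (SE 0.32) and than in osteoprogenitors by -1.69 (SE 0.34), given with no test since the values of these myeloma libraries chose the gene. With bone-lining cells alone the differences from endothelial cells, stromal progenitors and osteoprogenitors were -0.59, -1.30 and -0.70. Nfkbiz was lower in myeloma cells by -1.79 (SE 0.67, adjusted p = 0.0366), -1.56 (SE 0.67, adjusted p = 0.0695) and -2.14 (SE 0.72, adjusted p = 0.0222) against the same 3 types, and its call was lost against all 3 with bone-lining cells alone. It was also lost against endothelial cells without letter E or I (-1.42 and -1.63), against stromal progenitors without E, G or J (-1.37, -1.31 and -1.42) and against osteoprogenitors without D (-1.93).

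Cd69 and Gpr183 entered this fit only through libraries in which they are high, since 9 myeloma libraries exceeded 1 RPKM for Cd69 and 5 myeloma libraries and 1 endothelial library for Gpr183, and these myeloma values also chose them. Their differences are therefore given with no test. For Cd69 they were 4.32, 4.28 and 4.31 on the log2 scale against endothelial cells, stromal progenitors and osteoprogenitors, and for Gpr183 0.93, 1.29 and 1.29. With central marrow cells alone those of Gpr183 were -0.30, 0.06 and 0.05, so the excess over niche cells was in the bone-lining libraries. Nfkb2 was higher in myeloma cells than in stromal progenitors, by 1.69 (SE 0.55, adjusted p = 0.0165), where it had 7 reads or fewer in every stromal progenitor library of myeloma-bearing mice. Birc3 was higher by 1.89 (SE 0.87, adjusted p = 0.0933), a call lost without any of letters D, G, I or J (1.95, 1.70, 1.5001 and 1.95). With central marrow cells alone neither Nfkb2 nor Birc3 was called against stromal progenitors. Of the 7 genes other than Nfkbia, Cd69 and Gpr183, 1, 3 and 1 were called against endothelial cells, stromal progenitors and osteoprogenitors, where 37.2%, 37.1% and 33.5% of all genes were. Scaling every library to the same median moved the share of called genes that were higher in myeloma cells from 57.5% to 27.3% against endothelial cells and from 52.8% to 43.5% against stromal progenitors, while Nfkbiz stayed called in the same direction. With that scaling Tnfaip3, Nfkb1 and Bcl3 were also called against endothelial cells, and Birc3 lost its call against stromal progenitors.

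Tnfaip3, Nfkb1, Relb and Bcl3 did not pass the thresholds in any of these 3 comparisons before that scaling, with absolute log2 differences of 0.14 to 1.65. Between the niche cell types of myeloma-bearing mice 0 of the 8 genes other than Cd69 and Gpr183 passed for endothelial cells against stromal progenitors (background 17.2%), endothelial cells against osteoprogenitors (18.1%) and osteoprogenitors against stromal progenitors (4.73%). In limma 2, 0 and 1 of them had an unadjusted p below 0.05, where 3081, 3172 and 1693 of all 12683 genes did. The largest of these differences was Birc3 in endothelial cells against stromal progenitors, 2.37 (SE 1.00, adjusted p = 0.123 in limma). Voom-limma on the recovered reads called 2 there, Birc3 and Nfkb2, and 0 in the other pairs.

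**Figure D3:**
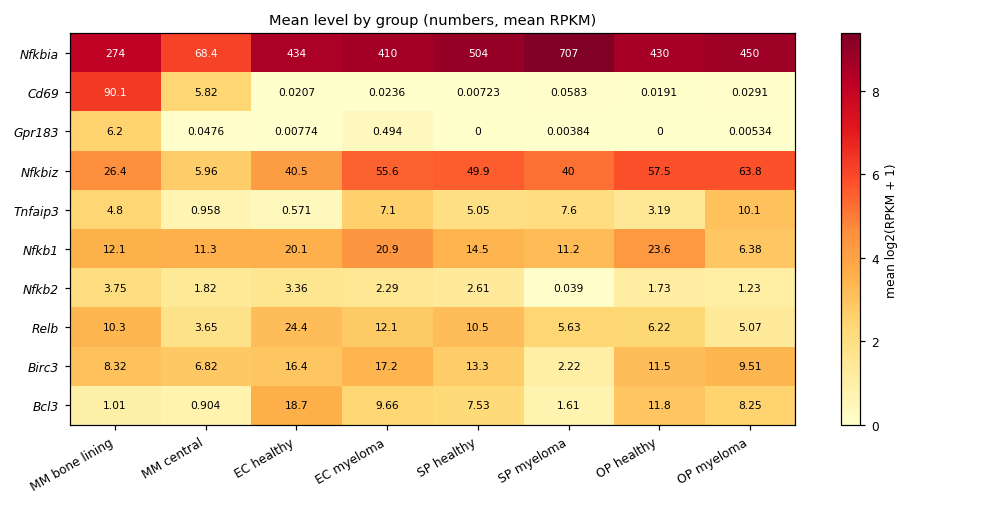
Mean level of each gene in the 8 groups, coloured by the mean of log2(RPKM + 1) and with the mean RPKM printed in each cell (n = 5 libraries, 4 for osteoprogenitors). Nfkbia exceeds 400 RPKM in the 6 niche cell groups and stands at 274 and 68.4 RPKM in the myeloma cells, while Cd69 reaches 90.1 RPKM in bone-lining myeloma cells and 0.0583 RPKM or less in niche cells.

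Enzymes that make or remove the Gpr183 ligand were found in the niche cells, and so was S1pr1. Ch25h, the first enzyme of that route, was at 0.0744 RPKM or less in all myeloma libraries and reached 437 RPKM in an endothelial library of the myeloma-bearing mice, with a group median of 39.9 RPKM and at least 1 library at 0. Cyp7b1, the second enzyme, reached 19.2 RPKM in osteoprogenitors and was 0 in all central marrow libraries, and Hsd3b7, which removes the ligand, had group medians of 11.4 to 168 RPKM in niche cells. S1pr1 had a median of 568 RPKM in endothelial cells of myeloma-bearing mice and was lower in myeloma cells than in these by a log2 difference of -8.89, and Klf2, a transcription factor that drives S1pr1, by -8.59, both given with no test since they entered the fit only through cells in which they are high. Of 19 tested genes of this list 12 were called in myeloma against endothelial cells, 8 of them lower, where 37.2% of all genes were called, and 12 and 11 against stromal progenitors and osteoprogenitors, 7 and 8 of them lower. Of the 21 tested NF-kB target genes outside the 10, 16 were called against endothelial cells, 11 against stromal progenitors and 8 against osteoprogenitors (37.2%, 37.1% and 33.5% of all genes), of which 15, 10 and 8 were lower in myeloma cells. Against endothelial cells they were led by Ier3, Cxcl1 and Cxcl10 with log2 differences of -8.20, -6.51 and -6.39. Genes near 0 in one cell type likewise entered through another, so these counts are a description. The direction split of this contrast moves with scaling, as given above, and these list counts were not recomputed at the same median.

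The genes that followed Nfkbia most closely over all 38 libraries, by Pearson r of log2(RPKM + 1), were Tuba1a (0.82), Fosb (0.82), Fos (0.81), Dusp1 (0.80) and Lmna (0.79). Fos, Fosb and Dusp1 belong to the immediate-early list, whose sum was 2822 to 7639 RPKM in the niche cells. Points of a group share their cell type and preparation, and the groups differ in depth. Within the 10 myeloma libraries, after the niche means were subtracted, the leading genes were others (Cox11 at 0.94, then Slc25a20, Slc35e1, Serinc1 and Ddx20). For Cd69 the most alike over 38 libraries were Prl3d2 (0.93), Clhc1, Dyrk3, Nlrp4c and Clec12a, and for Gpr183 Prl3d2 (0.82), Cd69 (0.81), Ear11, Mir7-1 and Aif1. Within niches the coefficient between Cd69 and Gpr183 was 0.07 and that between Cd69 and Nfkbia -0.54, with no p given for any of these coefficients.

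**Figure D4:**
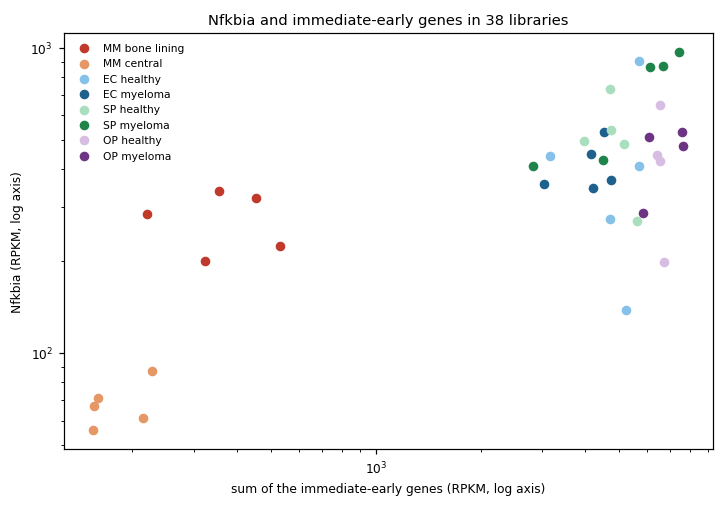
Nfkbia against the summed level of 19 immediate-early genes in each of the 38 libraries, both in RPKM on log axes and coloured by group. Central marrow myeloma cells lie lowest on both axes apart from their overlap with bone-lining library J in the sum, and the niche cells form a separate cloud from 2822 to 7639 RPKM in which Nfkbia varies from 138 to 965 RPKM.

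The comparison of myeloma-bearing with healthy mice asked whether the niche cells responded to myeloma. By limma, 0 of 8 tested genes were called in endothelial cells, 0 of 7 in stromal progenitors and 0 of 8 in osteoprogenitors, where 0%, 0% and 0.0115% of all genes were called. Unadjusted p-values below 0.05 numbered 1 of the 8, 0 of the 7 and 0 of the 8 (414 of 7880, 437 of 8747 and 422 of 8664 over all genes), and voom-limma on the recovered reads called 0 of them in each, also with all 38 libraries in the fit. At the same thresholds the authors, by voom-limma, reported genes that differed in each of these cell types. The shares of all genes called given here are those of the limma fit on log2(RPKM + 1). Cd69 and Gpr183 were left out in each cell type by the filter of 1 RPKM in 4 libraries, and Nfkb2 in stromal progenitors. Nfkbia had log2 fold changes of 0.16 (SE 0.48), 0.46 (SE 0.36) and 0.15 (SE 0.39) in endothelial cells, stromal progenitors and osteoprogenitors, all smaller than the spread between libraries. In endothelial cells its values were 442, 138, 907, 408 and 274 RPKM in healthy mice and 529, 346, 358, 369 and 448 RPKM in myeloma-bearing mice, so that the healthy group spanned the other.

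Tnfaip3 in endothelial cells was the largest rise among them. It was at 2.63, 0.0124, 0.00930, 0 and 0.206 RPKM in healthy mice and at 0.0117, 10.98, 10.1, 10.6 and 3.78 RPKM in myeloma-bearing mice, which is to say that 4 of 5 myeloma-bearing libraries lay above all healthy ones and library D had a single read. The log2 fold change was 2.14 (SE 0.92, limma adjusted p = 0.922), and this was the 1 gene with an unadjusted p below 0.05. Of 8 erythroid markers 2 were in the table, and their sum, all of it Car2 in the myeloma-bearing mice, was at most 0.0921 RPKM in healthy endothelial libraries and 44.6, 0.0310, 86.5, 13.9 and 42.1 RPKM in libraries D, E, G, I and J of the myeloma-bearing mice. Car2 had a log2 fold change of 4.23 (SE 1.19, limma adjusted p = 0.821), and its part in the Tnfaip3 values was not tested. In osteoprogenitors Tnfaip3 was at 0, 7.20, 5.58 and 0 RPKM in healthy and 13.2, 0.876, 18.3 and 8.02 RPKM in myeloma-bearing mice (log2 fold change 1.61, SE 1.08, adjusted p = 0.981). In stromal progenitors it ranged from 0 to 11.02 RPKM and from 0 to 22.4 RPKM, with a log2 fold change of 0.09 (SE 1.11).

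Nfkb1 in osteoprogenitors was the only one of the 10, among those tested, whose groups did not overlap in a niche cell type, against 2.65% of all genes there. It was at 26.6, 48.1, 8.41 and 11.4 RPKM in healthy mice and at 4.50, 7.84, 7.08 and 6.10 RPKM in myeloma-bearing mice, a gap of 8.41 to 7.84 RPKM, with a log2 fold change of -1.46 (SE 0.79, adjusted p = 0.981). In the same libraries all 3 tested myeloid markers had negative fold changes (median -1.98) and 9 of 10 osteoprogenitor markers positive ones (median 0.70), of which 0 were called by limma and 2, both osteoprogenitor markers, had an unadjusted p below 0.05. Their part in the Nfkb1 values was not tested. None of the 10 that was tested had groups apart in endothelial cells or stromal progenitors, where 0.914% and 0.697% of all genes did. In stromal progenitors the lowest fold changes were those of Birc3 (-1.63, SE 1.14, adjusted p = 0.971) and Bcl3 (-1.56, SE 0.97, adjusted p = 0.956). Birc3 was at 15.8, 15.96, 34.9, 0 and 0.0478 RPKM in healthy and 0.0520, 8.23, 0, 0.0285 and 2.81 RPKM in myeloma-bearing mice, a scatter from none to high within each group. Such gaps between libraries of the same group recur: of the 10 genes, 8 had a library with 3 reads or fewer in a niche group where another library had over 100 reads.

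**Figure D5:**
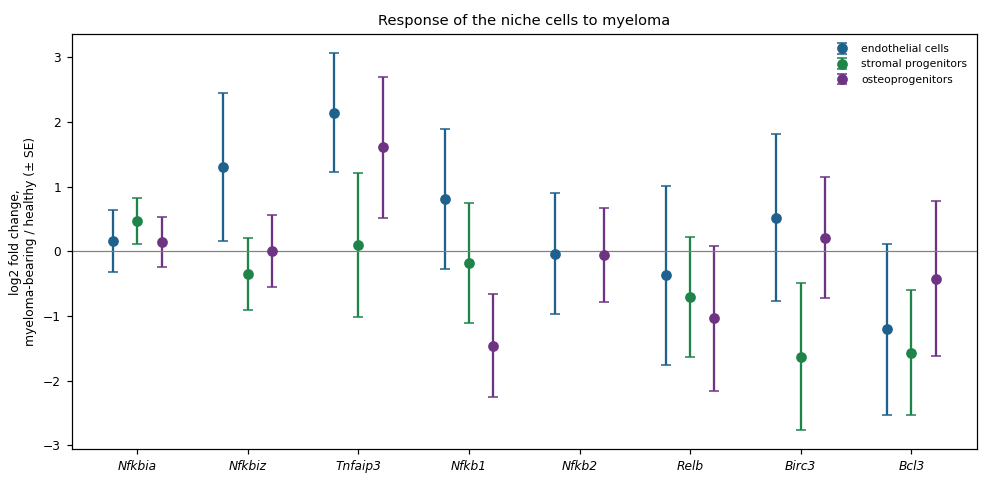
Log2 fold change between myeloma-bearing and healthy mice, with its SE, for the 8 genes tested in at least 1 niche cell type (5 against 5 libraries, 4 against 4 for osteoprogenitors; Nfkb2 was not tested in stromal progenitors). Nfkbia lies between 0.15 and 0.46 with the smallest errors, and the other genes have errors of 0.55 to 1.38.

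The responses were also compared between cell types as an interaction in limma over all 38 libraries. For endothelial cells minus stromal progenitors, endothelial cells minus osteoprogenitors and osteoprogenitors minus stromal progenitors 0 of the 8 genes other than Cd69 and Gpr183 were called, where 0.0946%, 0.173% and 0.126% of 12683 genes were. In each, 0 of the 8 had an unadjusted p below 0.05 in limma, where 1120, 995 and 695 of all genes did. The largest differences were 2.15 for Birc3, 2.26 for Nfkb1 and 1.84 for Birc3. For Nfkbia the differences were -0.30 (SE 0.52), 0.01 (SE 0.55) and -0.32 (SE 0.55). Among the further lists, 0 of 13, 17, 13 and 16 tested subunits, receptors, ubiquitin editors and targets of NF-kB were called in endothelial cells, 0 of 12, 16, 13 and 15 in stromal progenitors, and 0 of 12, 12, 11 and 13 in osteoprogenitors. Over these NF-kB lists, 3 of 59, 7 of 56 and 4 of 48 genes had an unadjusted p below 0.05 in limma, where 414 of 7880, 437 of 8747 and 422 of 8664 of all genes did.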

How the data were processed

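Libraries of 100 sorted cells were prepared by SmartSeq2. The authors aligned reads to GRCm38/mm10 with STAR 2.4.0, counted them per gene with featureCounts of Subread 1.4.5-p1 and deposited RPKM values made with edgeR. RPKM scales reads by gene length and library size. No column of the table was left without a sample. Whole reads were recovered from the steps between low values of each library, and 100% of values came out whole at a tolerance of 1e-06. Reads are not collapsed to molecules, so counts and bounds cover counting error only.

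The genes and gene lists were chosen with earlier results of these data known. Differences were tested with limma 3.58.1 in R 4.3.3 on log2(RPKM + 1), among genes above 1 RPKM in at least 4 libraries of the fit, with Benjamini-Hochberg adjustment over all of them. Calls needed an adjusted p below 0.1 together with a log2 fold change beyond 1 in either direction. Responses to myeloma and the niche contrast were fitted on the libraries compared, and cell type pairs and interactions on all 38. Since the authors' tests used voom, which needs counts, voom on the recovered reads is an alternative. From each further list, at most 3 called genes per comparison were named, by size of change, along with S1pr1, Klf2, Ch25h, Cyp7b1, Hsd3b7, Rel, Rela, Tnf and Il1b. Ltb was not analysed here. Other alternatives were a pseudocount of 0.1, no filter, libraries scaled to the same median, a replicate block and leaving out each letter in turn. The steps were tested on simulated data. At the larger scatter tried there, the fit missed nearly all of the smaller changes put in, so genes not called may still differ. Python 3.11.15, numpy 2.4.6, pandas 2.3.3 and matplotlib 3.10.9 were used.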

Additional observations from a re-analysis of the deposited data

Results flagged for a closer look

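In 10 of the 70 groups of libraries looked at (14.3%), 1 library stood far from the others of its group by Dixon's criterion. About 1 of 20 groups of normally distributed values meet it by chance. RPKM values are skewed, as with Relb in healthy endothelial cells (0.105 to 75.9 RPKM), so the 14.3% cannot be set against that rate. Nor does the rate hold for groups in which all other libraries are at 0, where any value above 0 meets the criterion. Gpr183 gave 3 of the 10, and 2 of these are such groups. It was at 17.3 RPKM in bone-lining myeloma library E, where the next was at 5.12 RPKM, at 0.238 RPKM in central marrow library D and at 2.47 RPKM in library J of endothelial cells from myeloma-bearing mice, the other libraries of both these groups being at 0. Cd69 was at 0.223 RPKM, or 9 reads, in stromal progenitor library I of myeloma-bearing mice.

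Of the regulators, Birc3 was at 57.7 RPKM in endothelial library M of healthy mice, where the next was at 16.5 RPKM, and at only 0.593 RPKM in osteoprogenitor library N of healthy mice, where the next lowest was at 14.5 RPKM. Bcl3 was at 7.58 RPKM in stromal progenitor library E of myeloma-bearing mice and at 0.359 RPKM in the next. Nfkb2 was at 9.08 RPKM in stromal progenitor library L of healthy mice and at 2.47 RPKM in the next, Relb at 19.4 RPKM in osteoprogenitor library J of myeloma-bearing mice and 0.762 RPKM in the next, and Tnfaip3 at 2.63 RPKM in endothelial library C of healthy mice and 0.206 RPKM in the next.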

How the results depend on the processing

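Between the niches, the 3 genes called became 1 (Nfkbia) with no filter and with voom-limma on the recovered reads, and 2 (Cd69 and Nfkbia) when any letter was left out (range 2 to 2). With a replicate block for the letter, 2 of the 10 were called, Cd69 and Nfkbia, and 12 genes in all against 18. The block changed no other count of calls. Same-letter libraries of the niches hardly deviated together (correlations of -0.049 to 0.067), and 1 of the 5 letters correlated best with its own. These values cannot show whether a letter is a single mouse, since noise between libraries could hide what a mouse shares. With voom-limma on the recovered reads of all 38 libraries, an alternative chosen after seeing the data, Nfkbia lost its call (2.04), and Cd69 lost its call with a pseudocount of 0.1 (4.74). Over all genes, 18 calls became 12 with a pseudocount of 0.1, 1 with no filter, 8 with voom and 3 without letter D.

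Counts here are over all 10 genes, Cd69 and Gpr183 included. Those of myeloma against niche cells hold Nfkbia, Cd69 and Gpr183, which the same myeloma libraries chose, so they are a description. In the main fit 37.2%, 37.1% and 33.5% of all genes were called against endothelial cells, stromal progenitors and osteoprogenitors. Shares over all genes under the alternatives are not given here. For endothelial cells against stromal progenitors, 0 became 2 (Birc3 and Nfkb2) with a pseudocount of 0.1, with voom-limma and with the same median in every library, and 0 to 1 with a letter left out. With the same median, endothelial cells against osteoprogenitors gave 1 (Nfkb1) and myeloma against endothelial cells 6 in place of 3. Against stromal progenitors central marrow cells alone gave 3 in place of 6, and against osteoprogenitors bone-lining cells alone gave 2 in place of 4. Signs turned, all in differences that were not called, for Nfkbia in endothelial cells of myeloma-bearing against healthy mice with the same median (-0.20) and without letter L (-0.19, range -0.19 to 0.49), Nfkbia in osteoprogenitors without L (-0.18, range -0.18 to 0.38), Nfkb1 between endothelial cells and osteoprogenitors in healthy mice (-0.75), Gpr183 in central marrow against endothelial cells (-0.30), and between the niches for Nfkb1 without G (0.03) or J (0.29; range -0.35 to 0.29) and Bcl3 without J (range -0.024 to 0.27). The range of Bcl3 between the niches rests on 2 fits, those in which it passed the filter. What turned the signs was not tested. Values at 0 to 3 reads limit Gpr183 and Cd69 in niche cells.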
